A study of Mus musculus with 2 samples.

Results

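Transcripts of 9 complement genes were followed by cell class and library in mouse pancreatic tumours. They are C3, C4b, C1s1, C1ra, C2, Cfb, Cfi, Serping1 and C3ar1. The genes were chosen by name, and all 9 were found among the 32285 genes of both count matrices. The tumours grew from KPC mouse pancreatic cancer cells, which were implanted into the pancreas and left for 21 days. Control mice carried the floxed Porcn allele without Cre (Porcnfl/fl, called WT in the labels). Knockout mice were littermates that carried the same floxed allele and the Csf1r-Cre transgene (Csf1r-Cre;Porcnfl/fl), so the floxed allele was common to both groups. Porcn encodes the enzyme that attaches the lipid Wnt proteins need for secretion, and Csf1r-Cre deletes it in cells that have used the Csf1r promoter, which monocytes and macrophages do. Each library was made from the combined tumours of 5 mice of 1 genotype, so the spread between mice could not be measured. No test was therefore made between genotypes and no p-value is given. Each interval below is an exact 95% interval and covers counting error only.

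Complement is a cascade of secreted proteins that tags cells and debris for uptake, recruits leukocytes and can lyse membranes. In the classical pathway C1q binds a target and switches on the proteases C1r and C1s, which cleave C4 and C2 into a convertase for C3. In the alternative pathway factor B forms the convertase, and the receptor for the C3a fragment signals on myeloid cells. Much of the plasma pool comes from the liver, and stromal cells and macrophages also make complement proteins in tissue.

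The 9 genes lie on 4 chromosomes (positions from GENCODE M21 on GRCm38). C4b (ENSMUSG00000073418, chr17:34728380-34743882), Cfb (ENSMUSG00000090231, chr17:34856374-34862518) and C2 (ENSMUSG00000024371, chr17:34862604-34898265) share a stretch of chromosome 17, all on the minus strand. C3 (ENSMUSG00000024164, chr17:57203970-57228136) lies further along that chromosome. C1ra (ENSMUSG00000055172, chr6:124512405-124523443, plus strand) and C1s1 (ENSMUSG00000038521, chr6:124530345-124542359, minus strand) lie end to end on chromosome 6, with 6901 bases between them, and C3ar1 (ENSMUSG00000040552, chr6:122847138-122856161) lies on the same chromosome. Serping1 (ENSMUSG00000023224, chr2:84765387-84775444) and Cfi (ENSMUSG00000058952, chr3:129835884-129875332) stand alone. Cfb and C2 are 85 bases apart, and the annotated gene Gm20547, which is not among the counted features, overlaps both. Whether reads from this stretch were counted for the wrong gene was not tested. C4b, C1ra and C1s1 each have a close copy, C4a, C1rb and C1s2. Of the 31-base words in the last 500 bases of each transcript, 57.7% of those of C4b also occur in C4a, 23.4% of those of C1ra in C1rb and 27.7% of those of C1s1 in C1s2, so reads from these pairs could be split or lost. Over all kept cells the copies had 39 and 26 UMIs (C4a), 21 and 2 UMIs (C1rb) and 27 and 18 UMIs (C1s2) in the control and knockout libraries.

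RefSeq promoter windows (GRCm38.p6, 250 bases before to 50 after the annotated start) were found for 4 of the 9 members. They are printed to show the start regions of a fibroblast-rich gene (C3), of the neighbouring pair C1ra and C1s1, whose levels moved together across cell classes, and of a gene read mainly in monocytes and macrophages (C3ar1). Capitals mark a match to TATAAA (C3, C3ar1) or to TTCNNNGAA (C1ra), read on both strands. The matches lie at bases 265 to 270 of the C3 window, 16 to 21 of the C3ar1 window and 283 to 291 of the C1ra window. Those of C3 and C1ra thus lie after the annotated start, which follows base 250. A further overlapping window of C1s1 held no match and is not printed.
C3 chr17:57228087-57228386, minus strand: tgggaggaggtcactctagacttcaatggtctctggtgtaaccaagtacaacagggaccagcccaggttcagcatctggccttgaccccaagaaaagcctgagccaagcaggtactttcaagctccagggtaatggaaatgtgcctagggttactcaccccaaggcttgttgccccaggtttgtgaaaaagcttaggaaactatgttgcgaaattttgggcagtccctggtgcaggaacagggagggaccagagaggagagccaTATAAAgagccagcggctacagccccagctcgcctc
C3ar1 chr6:122856108-122856407, minus strand: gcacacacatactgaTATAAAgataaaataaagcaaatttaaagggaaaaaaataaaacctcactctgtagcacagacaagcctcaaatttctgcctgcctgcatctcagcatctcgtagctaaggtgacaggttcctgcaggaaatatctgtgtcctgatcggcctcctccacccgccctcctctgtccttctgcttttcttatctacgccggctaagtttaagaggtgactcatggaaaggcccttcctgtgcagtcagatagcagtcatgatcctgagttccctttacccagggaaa
C1ra chr6:124512371-124512670, plus strand: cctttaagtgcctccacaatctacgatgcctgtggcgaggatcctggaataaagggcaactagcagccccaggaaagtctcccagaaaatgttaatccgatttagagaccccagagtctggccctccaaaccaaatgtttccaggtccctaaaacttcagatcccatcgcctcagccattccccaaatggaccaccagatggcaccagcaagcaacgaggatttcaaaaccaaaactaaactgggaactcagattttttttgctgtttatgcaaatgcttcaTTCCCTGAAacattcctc
C1s1 chr6:124542310-124542609, minus strand: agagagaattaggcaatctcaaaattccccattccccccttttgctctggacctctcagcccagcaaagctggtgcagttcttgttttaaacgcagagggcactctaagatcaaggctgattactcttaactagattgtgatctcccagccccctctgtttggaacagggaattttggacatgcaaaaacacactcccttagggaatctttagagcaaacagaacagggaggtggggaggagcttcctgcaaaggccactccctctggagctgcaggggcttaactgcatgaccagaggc
TATAAA occurred in 13.6% of the 32851 promoter windows of the table and TTCNNNGAA in 8.30%. An NF-kB consensus occurred in 8.46% of windows and was not found in these 4. A match describes letters in the window and is no evidence of a bound factor.

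The control matrix held 13766 barcodes and 173934025 UMIs (unique molecular identifiers, each 1 counted transcript) and the knockout matrix 12251 barcodes and 137527647 UMIs, with 46 barcode sequences present in both. After filtering, 11516 control and 10467 knockout cells were kept. They were clustered without the complement genes and named by markers. The fibroblast-like class (402 control and 713 knockout cells) had all 9 fibroblast markers detected, and a nearby cluster of 267 and 50 cells stayed unnamed because it showed all 8 mesothelial markers while 5 fibroblast markers stood among its leading 10 genes. The epithelial/tumour-like class held 9477 and 6084 cells, the monocyte/macrophage-like class 513 and 557, the neutrophil-like class 294 and 185, the T-like class 189 and 1626 and the B-like class 8 and 448. Porcn itself gave 8 and 4 UMIs in the monocyte/macrophage-like cells, too few to check the deletion, and whether these reads lie in the deleted part is not given in the sources used here. Levels are given as CPM, the UMIs of a gene among all UMIs of its class and library on a per-million scale.

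Most members stood highest in fibroblast-like cells, and C3ar1 in monocytes and macrophages. C3, the central component that all pathways cleave, stood at 4597 CPM in the control library and 6709.8 CPM in the knockout library in fibroblast-like cells. Its level in the unnamed mesothelial and fibroblast cluster was 2498 and 7983 CPM, against 220.1 and 227 CPM in neutrophil-like, 146 and 206 CPM in monocyte/macrophage-like and 90.4 and 40.8 CPM in epithelial/tumour-like cells. T-like cells had 12.1 and 20.6 CPM and knockout B-like cells 22.6 CPM, and these levels serve below as a low reference. Whether they are free RNA or transcripts of these cells was not tested. The order of the first 2 classes for C3 differed between libraries: fibroblast-like cells were highest in the control library and the unnamed cluster in the knockout library, with intervals that did not overlap. Serping1, which encodes the C1 inhibitor, also led in fibroblast-like cells (2426 and 2929 CPM). Control pericyte/smooth muscle-like cells (53 cells) came next with 890.3 CPM, with an interval that overlapped that of the unnamed cluster (786 CPM), and the same pericytes held 421 CPM of C1s1 but 52.6 CPM of C3. C1s1, C1ra, C4b, C2 and Cfi had their highest level in fibroblast-like cells in both libraries, and for Cfi the interval overlapped that of the next class in each (pericyte/smooth muscle-like cells in the control library and the unnamed cluster in the knockout library). Cfb was highest there in the control library and in the unnamed cluster in the knockout library.

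**Figure D1:**
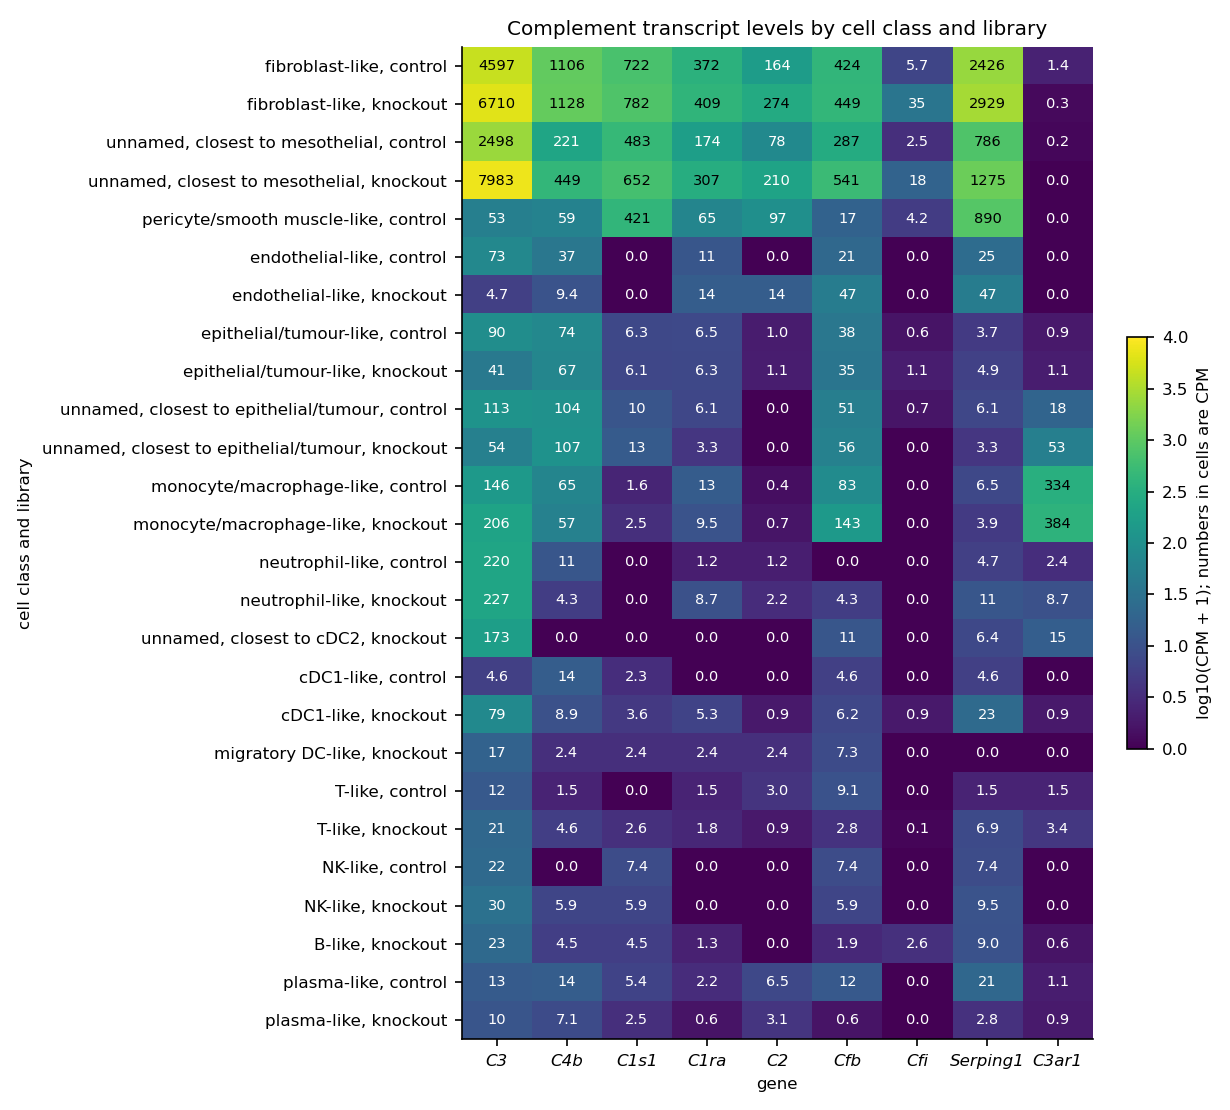
Level of each complement gene (columns) in each cell class and library with at least 20 cells (rows). Colour is log10(CPM + 1) and the number in each field is the CPM. Fibroblast-like cells and the unnamed mesothelial and fibroblast cluster carry most genes, and C3ar1 stands at 334 and 384 CPM in monocyte/macrophage-like cells.

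Because classes differ in size, the cells that held most of a gene's UMIs were not always those with the highest level. Fibroblast-like cells held 45.0% and 83.9% of all C3 UMIs in the control and knockout libraries, epithelial/tumour-like cells 27.3% and 7.46% and the unnamed cluster 26.0% and 6.43%. The share of the fibroblast-like class was larger in the knockout library for every member except C3ar1. These shares depend on the boundary of the class, because the unnamed cluster also holds cells with fibroblast markers. That cluster held 34.8% of control and 4.54% of knockout C1s1 UMIs, and its part in the shift was not tested. C4b, the component that C1s cleaves, went from 29.9% to 51.6% in fibroblast-like and from 61.5% to 44.9% in tumour cells. Cfb, the protease of the alternative convertase, stayed with tumour cells as its largest holder (59.5% and 47.7%), ahead of fibroblast-like cells (21.6% and 42.3%). Fibroblast-like cells held 69.7% and 93.9% of Serping1, 48.8% and 84.5% of C1s1, 48.0% and 77.1% of C1ra and 56.4% and 88.5% of C2. Cfi encodes factor I, the protease that inactivates C3b and C4b, and its largest holder was the tumour class in the control library (67.9%) and the fibroblast class in the knockout library (64.8%). Monocyte/macrophage-like cells held 82.9% and 85.6% of the UMIs of C3ar1, the receptor for C3a. These shares move with how many cells of each class each library held: the fibroblast-like class made up 3.49% of kept control cells and 6.81% of those kept from the knockout.

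**Figure D2:**
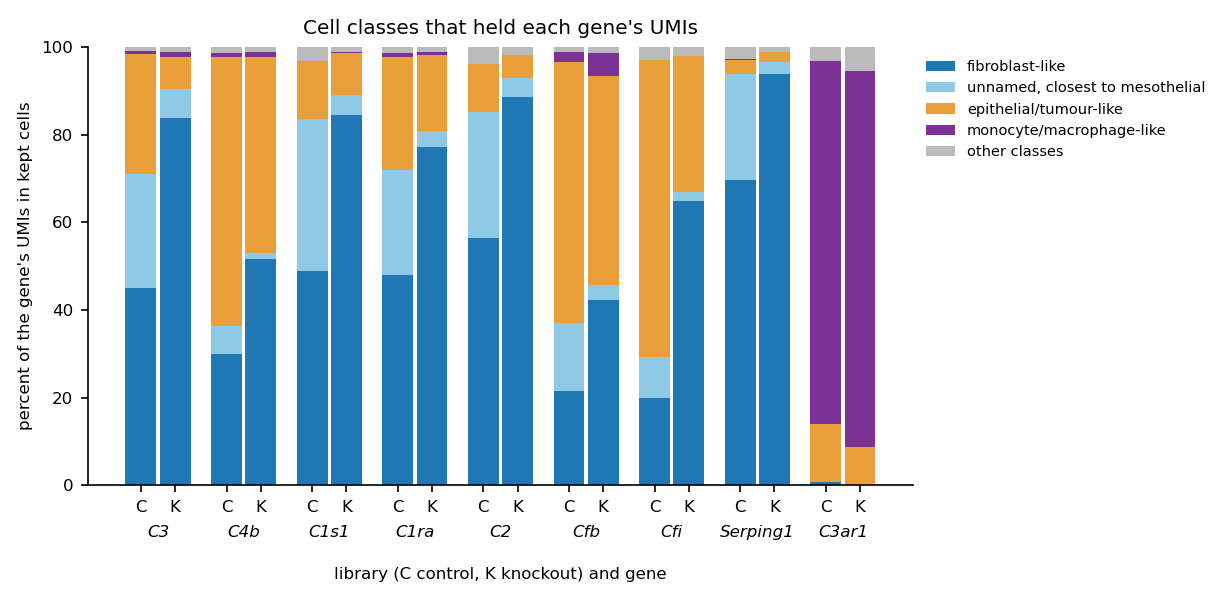
Percent of each gene's UMIs in kept cells (vertical axis) held by each cell class, with 1 bar for the control (C) and 1 for the knockout library (K) per gene. Fibroblast-like cells hold 45.0% of control and 83.9% of knockout C3 UMIs, and monocyte/macrophage-like cells hold most C3ar1 UMIs in both.

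Within fibroblast-like cells, C3, C2 and Cfi were higher in the knockout library and the initiating proteases differed little. C3 went from 4597 to 6709.8 CPM, a ratio of 1.46 (95% interval 1.44 to 1.48). C2, the protease part of the classical convertase, went from 164 to 274 CPM, a ratio of 1.66 (95% interval 1.53 to 1.81). Cfi was scarce in the control library, with 28 UMIs against 243 in the knockout library (5.74 and 34.6 CPM), and its ratio of 6.02 (4.06 to 9.26) was the largest of the members here. C1s1 stood at 722 and 782 CPM (ratio 1.08 (1.04 to 1.13)) and C1ra at 372 and 409 CPM (ratio 1.10 (1.04 to 1.17)). These proteases of the C1 complex thus stood close to their control level. C4b stood at 1106 and 1128 CPM, with an interval of the ratio from 0.985 to 1.06 that includes 1, and Cfb at 424 and 449 CPM with a ratio of 1.06 whose interval began at 1 and reached 1.12. Serping1 stood at 2426 and 2929 CPM, a ratio of 1.21 (1.18 to 1.23). C3ar1 had 7 and 2 UMIs and was too low to read.

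Of the 8 members with at least 20 UMIs in fibroblast-like cells, 2 (C2 and Cfi) were higher by at least 1.5-fold, 0 were lower by that much and 6 were neither. Over all 12665 genes measured in the class, 13.1% were higher and 6.95% lower by that rule. The median log2 ratio was 0.20 over the 8 members and 0.07 over all these genes. After each cell was thinned to 1000 UMIs, which left out 2 control and 5 knockout cells below that depth, the share of fibroblast-like cells with a C3 UMI was 82.5% and 88.0% (95.8% and 97.2% before thinning, at median depths of 10042 and 9129 UMIs). The same share was 14% and 21.0% for C2, 83% and 87.3% for Serping1 and 0.5% and 3.39% for Cfi. In T-like cells, at median depths of 2823 and 3339.5 UMIs, the thinned share with a C3 UMI was 1.67% and 2.14% (4.23% and 7.63% unthinned), and no T-like cell of either library had a Cfi UMI after thinning, which at the limit of 3 counts allows shares of up to 1.67% and 0.188% (exact upper bounds 2.03% and 0.231%). The summed level of the 9 fibroblast markers in the same class differed between libraries, at 52542 and 34177 CPM with no marker at 0, and its part in these ratios was not tested.

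**Figure D3:**
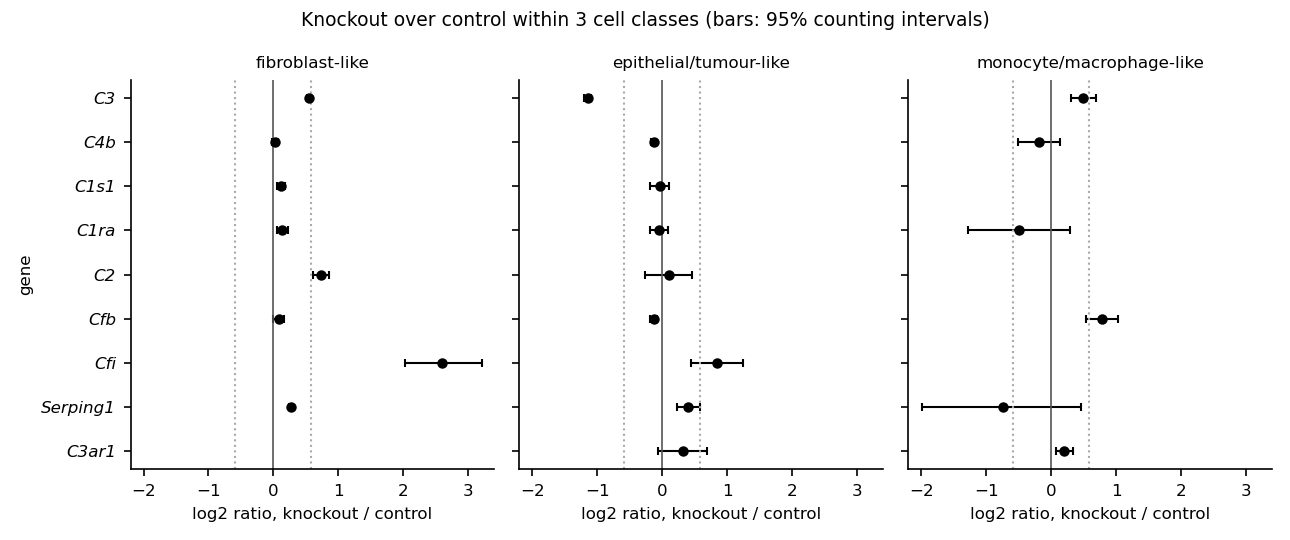
Ratio of the knockout to the control CPM on a log2 scale (horizontal axis) for the members with at least 20 UMIs in 3 cell classes; bars are 95% counting intervals and dotted lines mark a 1.5-fold difference. C3 lies above 0 in fibroblast-like and monocyte/macrophage-like cells (ratios of 1.46 and 1.41) and below it in epithelial/tumour-like cells (0.451), and Cfi in fibroblast-like cells lies furthest right.

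C3 varied widely between subclusters of fibroblast-like cells. The class was divided again, without complement genes, into 9 subclusters, of which 8 had at least 10 cells in each library. Control C3 spanned 3630.4 to 10295 CPM among the 6 of these described next, and stood at 1936 and 1301 CPM in the other 2, which were led by tumour genes and by leukocyte and cycling genes. The richest was an unnamed subcluster led by Cxcl12, Hp and Rspo1 (68 and 113 cells), with C3 at 10295 and 12255 CPM (ratio 1.19 (1.15 to 1.23)). The inflammatory-like subclusters were each named on 3 detected markers of a list of 8, at scores of 0.398 and 0.411. Cxcl12 stood among the leading genes of 1 and Cxcl14 among those of the other. These subclusters had C3 at 10042 and 10263 CPM and at 9287 and 9173 CPM, and neither ratio left 1 by its interval. The myofibroblast-like subclusters, the contractile and matrix-making kind, were lower. In 1 of them (28 and 160 cells) C3 was at 4208 and 5938 CPM (ratio 1.41 (1.34 to 1.49)), and in the other (53 and 89 cells) at 3630.4 and 3475 CPM (ratio 0.957 (0.909 to 1.01)). The adventitial-like subcluster (27 and 103 cells) went the other way, with C3 at 7006 and 4422 CPM, a ratio of 0.631 (0.595 to 0.669). A subcluster led by Igfbp5, Apod and Prg4 held 110 control cells and 1 knockout cell. Its C3 level was 2196 CPM in the control library, among the lowest of the class, and without it the C3 ratio of the class was 1.18. By its score (0.764) this control-only subcluster was also closest to the adventitial markers but stayed unnamed. The same held for the Cxcl12, Hp and Rspo1 subcluster (0.495). The ratio of 0.631 thus belongs to the 1 named subcluster and gives no direction for adventitial-type cells as a whole. With the 8 shared subclusters weighted alike in both libraries, C3 stood at 6901 and 7398 CPM, a ratio of 1.07.

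C3 was higher in the knockout library in 5 of 8 subclusters and lower in 3, with the interval above 1 in 4 and below 1 in 1. The 2 small subclusters that stayed unnamed, 1 led by tumour genes (32 and 25 cells) and 1 by leukocyte and cycling genes (10 and 14 cells), had ratios of 1.65 and 2.60; without both the class ratio was 1.36. Cfi had a ratio above 1 in each of the 5 subclusters where it could be read, from 1.73 to 8.51. The interval was above 1 in 3 of them, and the ratio with the mix held alike was 3.90. The class held 28 control and 243 knockout Cfi UMIs, so a subcluster became readable mainly through its knockout UMIs. The shared direction is therefore no separate support for the class ratio. In the myofibroblast-like subcluster of 28 and 160 cells Cfi had 3 and 113 UMIs, and in the Cxcl12, Hp and Rspo1 subcluster 4 and 39 UMIs. C2 was higher in 6 of 8 subclusters (ratio with the mix held alike 1.28), and in the myofibroblast-like subcluster of 28 and 160 cells it stood at 284 and 401 CPM. Cfb, whose class ratio was near 1, had a ratio of 1.25 with the mix held alike. It was highest in the Cxcl12, Hp and Rspo1 subcluster (765 and 933 CPM) and stood at 506 and 638 CPM in the subcluster found almost only in the control library. Serping1 was higher in 6 of 8 subclusters (1.11 with the mix held alike). C4b (0.956), C1ra (1.03) and C1s1 (0.941) had ratios nearer 1, and for C1s1 and C4b the knockout level was then below the control level.

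**Figure D4:**
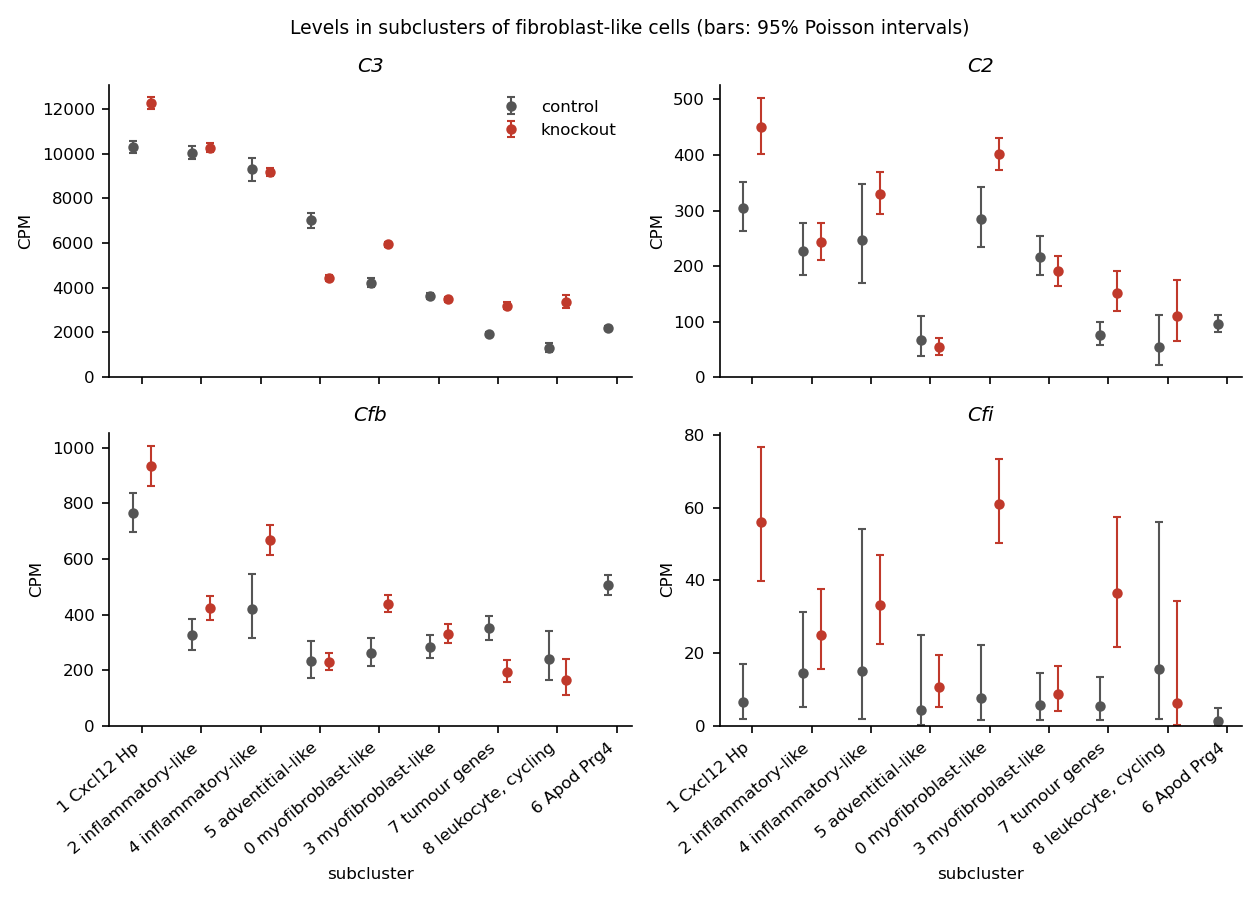
CPM (vertical axes) of C3, C2, Cfb and Cfi in each subcluster of fibroblast-like cells, control in grey and knockout in red, with 95% Poisson intervals for counting error. C3 spans 1301 to 10295 CPM between control subclusters (3630.4 to 10295 without those led by tumour or leukocyte genes and the control-only one). Cfi is higher in the knockout library in the 5 subclusters with enough UMIs to read, which became readable mainly through their knockout UMIs.

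The unnamed cluster of mesothelial and fibroblast markers had the highest C3 of the knockout library. C3 went from 2498 to 7983 CPM, a ratio of 3.20 (3.08 to 3.32) over 267 control and 50 knockout cells. Serping1 stood at 786 and 1275 CPM, C4b at 221 and 449 CPM, Cfb at 287 and 541 CPM and C2 at 78.2 and 209.9 CPM, each with an interval above 1. Its makeup differed between libraries. A mesothelial-like subcluster with Muc16, Upk3b and Msln made up 41 of the 267 control and 30 of the 50 knockout cells. In that subcluster alone C3 stood at 7455 and 11366 CPM, a ratio of 1.52 (1.46 to 1.60). There C1s1 was lower in the knockout library (1223 and 734 CPM) and C4b higher (276 and 630.4 CPM). Only this subcluster and 1 fibroblast subcluster (73 and 11 cells) had enough cells to be weighted alike, and the others were left out. The C3 ratio was then 1.43 and that of C4b 1.50. The same weighting gave 1.47 for C2 (2.68 in the whole cluster), 1.18 for Serping1 (1.62 in the whole cluster) and 0.997 for Cfb (1.89 in the whole cluster). The Cfb difference was thus not seen over these 2 subclusters. As they leave out many control cells, they do not give the whole cluster with its mix held alike.

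In tumour cells C3 was lower in the knockout library while its classical and alternative partners stayed close. C3 stood at 90.4 CPM in the control library and 40.8 CPM in the knockout library in epithelial/tumour-like cells, a ratio of 0.451 (0.435 to 0.467) on 13613 and 4188 UMIs. C4b stood at 73.6 and 67.1 CPM (ratio 0.912 (0.885 to 0.94)) and Cfb at 37.9 and 34.5 CPM (ratio 0.911 (0.873 to 0.95)). C1ra (6.50 and 6.28 CPM), C1s1 (6.30 and 6.12 CPM) and C2 (1.04 and 1.11 CPM) had intervals of the ratio that included 1. Serping1 was at 3.73 and 4.91 CPM, against 1.51 and 6.92 CPM in T-like cells, and 58.5% of its control and 50.5% of its knockout UMIs lay in the top 1% of tumour cells. All 9 members had at least 20 UMIs, and 1 of them (Cfi, 95 and 116 UMIs) was higher and 1 (C3) lower by at least 1.5-fold, with 7 neither. Over all 17452 genes measured in the class, 9.41% were higher and 6.49% lower. The median log2 ratio was -0.04 over the members and -0.06 over all genes. The thinned share of cells with a C3 UMI, with 49 and 35 shallower cells left out, was 8.73% and 4.31% (37.1% and 27.5% unthinned, at median depths of 13279 and 14783 UMIs). The summed fibroblast markers in these cells were 96.0 and 33.9 CPM, lower in the knockout library as C3 was, and the part of free or captured fibroblast RNA was not tested. Per 100 C3 UMIs the tumour cells held 4.12 and 12.1 Serping1 UMIs, against 52.8 and 43.7 in fibroblast-like cells. For C4b the order was the opposite, with 81.4 and 165 per 100 C3 UMIs in tumour cells and 24.1 and 16.8 in fibroblast-like cells.

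The lower C3 ran through nearly all tumour clusters. The ratio was below 1 with its interval in 13 of 14 clusters (13 of the epithelial/tumour-like class and 1 nearby unnamed cluster led by S100a9 and Tspan8). The exception was a cluster led by Csmd1 and Hmga2 (959 and 223 cells), with C3 at 58.3 and 70.1 CPM, a ratio of 1.20 (1.03 to 1.40). The lowest ratio was in a cluster led by Lgals4, Rbp2 and Muc5ac (420 and 95 cells), with C3 at 192 and 47.1 CPM (0.245 (0.199 to 0.299)). A cluster led by the interferon-induced chemokines Cxcl10 and Cxcl9 (318 and 354 cells) had C3 at 172 and 55.5 CPM (0.323 (0.287 to 0.363)), with Cfb at 118 and 89.9 CPM, the highest control level of Cfb among the 14. C3 itself was highest in a small cluster led by Tff2, Pkhd1 and Ttr (42 and 50 cells), at 592 and 370.3 CPM. This cluster held 36 of the 95 control and 99 of the 116 knockout Cfi UMIs of the class. All 8 epithelial markers were detected in it, against 4 or 5 in the other clusters of the class. Its endocrine score (0.833) was close to its epithelial score (0.884). Whether its cells came from the implanted tumour cells or from the host pancreas was not tested. The largest clusters of the class were not the same in both libraries: 1944 control cells fell in the cluster led by 9030622O22Rik and Cp against 508 knockout cells, and 1191 knockout cells in the cluster led by Tnnt2 and Hmga2 against 821. With clusters weighted alike the C3 ratio was 0.504, and that of Cfi was 1.13. C3 was unevenly spread between cells: the top 1% of cells held 19.4% of control and 27.3% of knockout C3 UMIs, against 9.16% and 9.04% for C4b.

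In monocytes and macrophages the receptor C3ar1 and the components Cfb and C3 were higher in the knockout library. C3ar1 stood at 334 CPM in the control library and 384 CPM in the knockout library, a ratio of 1.15 (1.05 to 1.26) on 826 and 1094 UMIs. Cfb stood at 82.9 and 143 CPM (ratio 1.72 (1.45 to 2.05)) and C3 at 146 and 206 CPM (ratio 1.41 (1.23 to 1.61)). C4b stood at 65.5 and 57.3 CPM, with an interval of the ratio (0.699 to 1.09) that includes 1. C1ra (33 and 27 UMIs) and Serping1 (16 and 11 UMIs) were too sparse to compare, and no Cfi UMI was seen in either library, which at the limit of 3 counts allows a share of up to 0.601% and 0.549% of thinned cells (exact upper bounds 0.737% and 0.673%). Of the 6 members with at least 20 UMIs over both libraries, 1 (Cfb) was higher and 1 (Serping1, on those few UMIs) lower by at least 1.5-fold, and 4 were neither. Over all 10295 genes measured, 7.84% were higher and 10.7% lower, and the median log2 ratio was 0.00 over the 6 members and -0.03 over all genes. Thinned to 1000 UMIs (14 and 11 shallower cells left out), 24.4% and 26.9% of cells had a C3ar1 UMI (54.6% and 56.6% unthinned), 6.81% and 11.5% a Cfb UMI and 12.0% and 17.6% a C3 UMI. T-like cells gave 0% and 0.0628% for C3ar1. The unthinned depth also differed, at medians of 2889 and 4038 UMIs. The 12 monocyte/macrophage markers of the class summed to 12874 and 14896 CPM with no marker at 0, and the 8 epithelial/tumour markers to 485 and 223 CPM with 2 and 1 at 0, and their part in these ratios was not tested.

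The difference in Cfb had an interval above 1 in 3 of the 5 subclusters where it could be read, and that in C3ar1 in 1 of 6. For C3 this was so in 2 of 6, with ratios from 0.984 to 2.57. In the Ly6c2 monocyte-like subcluster (62 and 146 cells) Cfb stood at 116 and 231 CPM (ratio 1.995 (1.27 to 3.29)) and C3ar1 at 385 and 531 CPM (ratio 1.38 (1.07 to 1.81)). In the monocyte-like subcluster led by Cxcl2 and Ptgs2 (96 and 67 cells) Cfb stood at 56.9 and 118 CPM (ratio 2.07 (1.27 to 3.44)). In the macrophage-like subcluster led by Ccl8, Pf4 and Apoe (63 and 51 cells) Cfb stood at 79.3 and 149 CPM and C3 at 103 and 265 CPM (ratio 2.57 (1.71 to 3.93)), while C3ar1 stood at 418 and 321 CPM with an interval of the ratio (0.581 to 1.01) that includes 1. In an unnamed subcluster led by Ccl8 and Tmem176a (80 and 97 cells) neither differed, with C3ar1 at 406 and 401 CPM and Cfb at 102 and 95.7 CPM. C4b followed another pattern. Its level was 165 and 159 CPM in that Tmem176a subcluster and 485 and 423 CPM in a subcluster of 6 and 9 cells with Lyve1 and Folr2, against 34.9 and 35.7 CPM in the one led by Ccl8 and Chil3. Over the 6 subclusters with enough cells C3ar1 was higher in 3 and lower in 3, and with these weighted alike its ratio was 1.05 and that of Cfb 1.65.

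**Figure D5:**
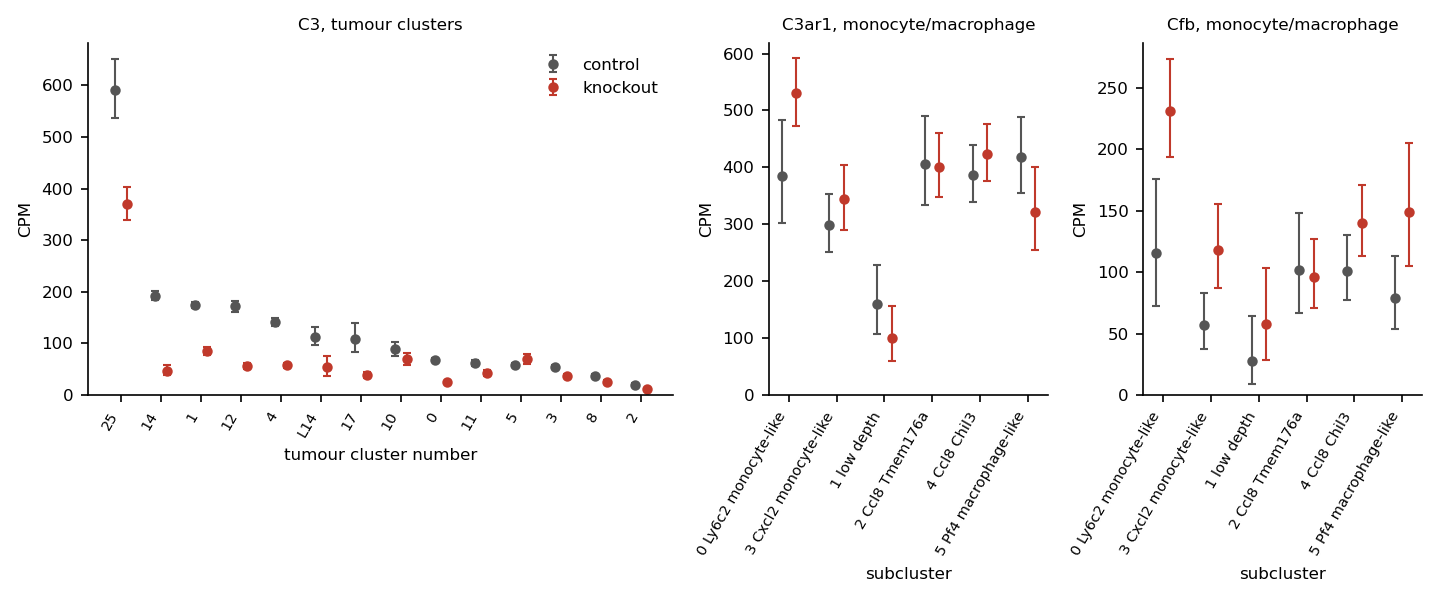
CPM (vertical axes) of C3 in the 14 tumour clusters, and of C3ar1 and Cfb in 6 subclusters of monocyte/macrophage-like cells, control in grey and knockout in red, with 95% Poisson intervals. C3 is lower in the knockout library in 13 of 14 tumour clusters (the exception is cluster 5), and Cfb in Ly6c2 monocyte-like cells stands at 116 and 231 CPM.

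Most members were low in other leukocytes, but C3 in neutrophil-like cells exceeded its monocyte/macrophage-like level in the control library (146 CPM). In the knockout library that level was 206 CPM and the intervals overlapped. Neutrophil-like cells held C3 at 220.1 and 227 CPM (186 and 105 UMIs, ratio 1.03 (0.805 to 1.32)), and it was the only member with 20 UMIs there. It was neither higher nor lower by 1.5-fold, in a class where 16.9% of 5845 genes were higher and 19.7% lower. T-like cells had 5 members with 20 UMIs, of which 3 (C3, C4b and Serping1) were higher, 1 (Cfb) lower and 1 neither, against 10.3% and 16.4% of 11288 genes. These counts rested on 8 and 140 UMIs of C3, 1 and 31 UMIs of C4b, 6 and 19 UMIs of Cfb and 1 and 47 UMIs of Serping1. The intervals of the C3, C4b and Serping1 ratios included 1, and under other processing settings their log2 ratios ran from -0.050 to 1.23, from -1.11 to 1.62 and from -0.24 to 2.01, so no direction is read from them. In knockout T-like cells there were 33.6 (23.6 to 47.0) Serping1 UMIs per 100 C3 UMIs and 22.1 (14.5 to 32.9) C4b UMIs. Knockout fibroblast-like cells held 43.7 and 16.8, each within those intervals. Cfb, with 13.6 (7.93 to 22.0) per 100 C3 UMIs in the T-like cells, stood above the 6.69 of the fibroblast-like cells. Knockout tumour cells held 84.7, and all kept knockout cells together had 7445 Cfb and 56177 C3 UMIs. C3ar1 stood at 16.4 (10.1 to 25.7) and 0.00424 per 100 C3 UMIs in the T-like and fibroblast-like cells. Of its 23 UMIs in knockout T-like cells 16 lay in 1 cell, and the interval takes each UMI as separate. What set these values was not tested.

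The wider cascade was read from 44 further complement genes of all roles. In fibroblast-like cells 19 were measured, of which 4 were higher by at least 1.5-fold, 6 lower and 9 neither (over all genes 13.1% were higher and 6.95% lower). The higher genes included the inhibitor of membrane attack Cd59a (39.8 and 86.0 CPM). Cd55, which speeds convertase decay, stood at 303 and 334 CPM. The genes of C1q, which macrophages make, were at 10.1 and 2.56 CPM (C1qa), 8.21 and 1.42 CPM (C1qb) and 5.74 and 0.997 CPM (C1qc) in these fibroblasts, against 9.06 and 13.4 CPM of C1qa in T-like cells. In epithelial/tumour-like cells 28 were measured, 6 higher, 3 lower and 19 neither (9.41% and 6.49% of all genes). Among them C4bp, an inhibitor of C4b, was at 2.66 and 0.457 CPM (ratio 0.172 (0.124 to 0.233)), while the membrane regulator Cr1l was at 50.4 and 48.2 CPM. Vtn, an inhibitor of the terminal complex, rested on 8 and 16 UMIs. In monocyte/macrophage-like cells 19 were measured, 2 higher, 4 lower and 13 neither (7.84% and 10.7% of all genes). Clu was at 99.5 and 34.1 CPM, the scavenger-type collectin Colec12 at 47.3 and 23.2 CPM and C6 on 10 and 35 UMIs. C1qa stood at 2176 and 2459.9 CPM, C1qb at 2030.3 and 2380.1 CPM and C1qc at 1325 and 1459 CPM. The C5a receptor C5ar1 stood at 108 and 135 CPM, properdin (Cfp), which stabilises the alternative convertase, at 196 and 191 CPM, and the C3 fragment receptor subunit Itgam at 436 and 323 CPM (ratio 0.741 (0.678 to 0.81)). In neutrophil-like cells 12 were measured, with 2 higher, 3 lower and 7 neither (16.9% and 19.7% of all genes), and C5ar1 at 454 and 530.5 CPM. Among the 12, C1qb rested on 2 and 21 UMIs and Cd55 on 24 and 3 UMIs, and the integrin Itgax stood at 49.7 and 95.3 CPM. In T-like cells 11 were measured, with 4 higher, 3 lower and 4 neither (10.3% and 16.4% of all genes), among them Cd55 at 4.53 and 19.7 CPM, Clu at 69.5 and 29.7 CPM and C1qbp at 40.8 and 83.4 CPM.

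Over the 26 pairs of class and library with at least 20 cells, the levels of C3, Cfb and C3ar1 were set beside those of other genes by the Pearson correlation of log2(CPM + 10). This describes a likeness of pattern: the points share 2 libraries and differ in depth, and no p is given. C1ra and C1s1 correlated at 0.945, Serping1 and C1s1 at 0.960 and C3 and Cfb at 0.822. Outside complement, the nearest genes were Igfbp6 (0.919), Fbln1 (0.901) and Sbsn (0.891) for C3. They were Flrt2 (0.958), Mir99ahg (0.913) and Gas6 (0.910) for Cfb, and Ms4a7 (0.985), Msr1 (0.971) and Folr2 (0.954) for C3ar1.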

How the data were processed

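Single-cell RNA-seq counts of 2 libraries were used, 1 per genotype, each from the pooled tumours of 5 mice. The deposited matrices hold raw UMI counts per gene and cell barcode, which the authors had already filtered to called cells. Per the file headers Cell Ranger 8.0.0 wrote them, whereas the submitters' processing notes name Cell Ranger 3.1.3 and the build mm10. GENCODE M21 (GRCm38) held 32158 of the 32285 gene IDs.

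A cell was kept if it had 500 or more genes and no more than 15% of its UMIs from mitochondrial genes. Scrublet, run in scanpy 1.11.5 at an expected rate of 0.08, removed 148 control and 341 knockout doublets. Median depth of kept cells was 12167.5 and 10109 UMIs. The 2000 most variable genes, without 53 complement genes, gave 30 principal components and a graph linking each cell to 15 neighbours, with no batch correction; this was clustered by Leiden (leidenalg 0.10.2) at resolution 1; leukocytes were clustered again, and classes were divided at resolution 0.5. Clusters were named "-like" from marker lists, by a scoring set after the clusters had been seen, so class names are rebuilt here and may differ from the study's. A cluster with fewer than 3 detected markers, or whose leading genes pointed elsewhere, stayed unnamed.

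Counts were summed over the cells of a class and given as CPM with exact Poisson intervals; ratios of knockout to control carry exact conditional binomial intervals and shares Clopper-Pearson intervals (scipy 1.17.1). Log2 ratios add 1 UMI to each sum, scaled to library depth, and a median of them uses genes with at least 20 UMIs in a class over both libraries. With 1 library per group nothing was tested, and a gene is counted as higher or lower past 1.5-fold. Gene counts past 1.5-fold were limited to classes of 100 or more cells per library. Ratios are also given for the unnamed mesothelial and fibroblast cluster and for subclusters of 10 or more cells per library. UMIs are counted molecules of single libraries, so intervals say nothing of the spread between mice. Named genes are the 9 members, a fixed set of complement genes, the 3 of the wider complement list that differed most in each compared class, and the 3 genes nearest in pattern to C3, Cfb and C3ar1. The values of 1 gene of the wider list are not reported here. The subclusters, tumour clusters and the 2 libraries' shared barcodes were described after their values were seen. The members and lists were chosen with earlier results of these data known. Scripts were tested on simulated data. Alternatives covered the cell filter, doublets, resolution, withheld genes, means over cells, scaling, cluster mix, pseudocount, thinning depth and call thresholds.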

Additional observations from a re-analysis of the deposited data

Results flagged for a closer look

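C3 and Cfb differed between the libraries in opposite directions in different cell classes. The ratio of knockout to control for C3 was 1.46 in fibroblast-like cells and 1.41 in monocyte/macrophage-like cells, and 0.451 in epithelial/tumour-like cells, each with a counting interval that left 1 on its own side. Cfb, which shares the C3 convertase, had a ratio of 1.06 in the fibroblast-like class, 1.72 in the monocyte/macrophage-like class, 0.911 in the epithelial/tumour-like class and 0.308 in T-like cells on 6 and 19 UMIs. With 1 library per genotype the difference between classes was not tested. With clusters weighted alike in both libraries C3 stood at 1.07, 1.49 and 0.504 in the first 3 classes and Cfb at 1.25, 1.65 and 0.889.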

How the results depend on the processing

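Each genotype is 1 pooled library, so no replicate can be left out, and class membership sets much of what depth does not. No paired analysis was possible because each genotype has 1 library. Of 72 values of the 6 main results under other settings, 49 stayed within their bounds and 23 moved beyond them. For the 3 ratios the bounds are the counting interval. For the medians they are the medians of the members' lower and upper limits, which give no interval of the median itself. The 3 ratios kept their direction, and the medians near 0 in tumour cells (-0.14 to 0.09) and in monocyte/macrophage-like cells changed sign. For C3 in fibroblast-like cells (1.46) the ratio was 2.13 under the strict cell filter (633 and 701 cells in the class), 2.002 at Leiden resolution 2 (621 and 736 cells), 1.50 under the loose filter, 1.41 with doublets kept, 1.39 centred on the median of all genes, 1.33 as a mean over cells and 1.07 with subclusters weighted alike. Chosen after seeing the data, it was 1.05 with subclusters at resolution 1 weighted alike and 1.93 with the unnamed mesothelial and fibroblast cluster added. It was 1.36 without the subclusters led by tumour or leukocyte genes and 1.18 without the control-only subcluster. The median log2 ratio of the members there (0.20) was 0.82 under the strict filter, 0.74 at resolution 2, 0.79 with the unnamed cluster, 0.13 centred, 0.13 weighted alike and 0.11 weighted alike at subcluster resolution 1. C3 in tumour cells (0.451) was 0.413 under the strict filter, 0.468 centred and 0.504 weighted alike. C3ar1 in monocyte/macrophage-like cells (1.15) was 1.53 under the strict filter and 1.05 at resolution 2, and the members' median there (0.00) was -0.29 as a mean over cells. The strict filter and resolution 2 put more control cells in the fibroblast-like class than the 402 of the main setting; the cause of these shifts was not tested. Among 298 values of other member ratios, 229 kept within their interval, 67 moved and 2 whose interval had left 0 reversed: the log2 ratio of C1s1 in fibroblast-like cells (0.12) was -0.088 with subclusters weighted alike and -0.075 at subcluster resolution 1. Ratios whose interval included 1 also changed sign under some settings: in log2, C4b in fibroblast-like cells (0.03) ran from -0.12 to 0.74, and C3, C4b, Serping1 and C3ar1 in T-like cells, C1ra and C1s1 in tumour cells and C3 in neutrophil-like cells did so too. In fibroblast-like cells 1659 genes were higher and 880 lower by 1.5-fold, against 579 and 387 by 2-fold and 813 and 400 among genes with 100 UMIs. These counts were 1643 and 1133, 859 and 469, and 632 and 671 in tumour cells, and 807 and 1097, 280 and 382, and 310 and 303 in monocyte/macrophage-like cells. Shares thinned to 2000 UMIs kept their order between libraries in C3, C2 and Cfi of fibroblast-like cells.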

Other observations

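Some small clusters that the report leaves out also held C3. In the knockout library a cluster of 87 cells scored highest for the conventional dendritic cells called cDC2, but its leading genes, among them Lyz2, Tyrobp, Ccr2 and F13a1, held monocyte/macrophage markers, so it stayed unnamed. It held C3 at 173 CPM (81 UMIs), between the levels of monocyte/macrophage-like and tumour cells. A C3 UMI was found in 47.1% of these cells, and in 17.2% after thinning to 1000 UMIs, against 2.14% of thinned knockout T-like cells. C4b had 0 UMIs there, and Cfb 10.7 CPM. The control library held 7 cells of this cluster, too few for a level.

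Knockout cDC1-like cells (115 cells) had C3 at 79.2 CPM on 89 UMIs and Serping1 at 23.1 CPM on 26 UMIs, against 2 UMIs of each in 54 control cells. Only 3.48% of the knockout cells had a C3 UMI, and 0.885% did after thinning, below the share in T-like cells. The C3 UMIs of this class therefore came from few cells, and no difference between genotypes is read from them.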
